A study of Homo sapiens with 18 samples.

Results

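The serine/arginine-rich splicing factors (SR proteins), the heterogeneous nuclear ribonucleoproteins (hnRNPs) and the kinases that phosphorylate SR proteins were followed in 18 RNA-sequencing libraries from JEKO1 and MAVER cells, both established from mantle cell lymphoma. Members were taken by symbol: every gene whose symbol begins with SRSF and a digit or with HNRNP, together with CLK1 to CLK4, SRPK1, SRPK2, TRA2A and TRA2B. Of 25369 genes listed in each table, 49 matched, and 39 had a mean of at least 10 normalized counts in both tables. These 39 comprised 8 classical SR proteins, 3 other SRSF genes, 2 TRA2 genes, 4 CLK kinases, 2 SRPK kinases, 18 hnRNP protein genes, the retrocopy HNRNPA1L2 and the antisense gene HNRNPU-AS1. The 10 left out were HNRNPCL1, HNRNPCL2, HNRNPA3P1, HNRNPA1P33, HNRNPKP3, HNRNPUL2-BSCL2, HNRNPA1P10, HNRNPLL, SRSF12 and HNRNPH2, none of which exceeded 4.98 in any library.

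SR proteins bind exonic enhancers through their RNA recognition motifs and recruit the spliceosome through arginine/serine-rich domains, whereas many hnRNPs bind silencers and counteract splice-site use. SRPK kinases phosphorylate SR proteins in the cytoplasm and promote their entry into the nucleus, and CLK kinases phosphorylate them further in the nucleus and release them from speckles. Many of these genes control their own output through exons or introns whose inclusion sends the transcript to nonsense-mediated decay or keeps it in the nucleus, and lymphoid cells use the same proteins to switch isoforms during activation.

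The libraries formed 6 groups of 3 (replicates A, B and C), all harvested at 6 h. JEKO1 cells received the solvent DMSO or IB, and MAVER cells received DMSO, IB, KPT or PU. The series description names ibrutinib at 0.4 µM and selinexor at 1.5 µM. IB was taken for ibrutinib, which blocks the kinase BTK downstream of the B cell receptor. KPT was taken for selinexor, which blocks nuclear export by XPO1. What PU stands for is not given, and it is used as written. No genetic change is given for either line. The replicates are called biological, with no statement of how cultures were separated. The p-values set differences between groups against the spread among these libraries, and whether they extend to separate cultures is not known. Because the tables of the 2 lines were normalized separately, levels are compared within a line only.

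Recovered depth was 5374226 to 17040599 reads per library. In MAVER it was 9897029 to 12085782 with DMSO, 8415254 to 9810362 with IB, 5374226 to 7924550 with KPT and 8035123 to 17040599 with PU. Every KPT library was shallower than every library of the other groups, and the part of depth in the KPT results was not tested. B cell markers (7 of 7) and the mantle cell lymphoma markers CCND1, SOX11 and CD5 were present in both lines, and no T cell or monocyte marker reached a mean of 10. Summed over EPCAM, KRT18, COL1A1 and PDGFRB, epithelial and stromal markers stood at 246 to 274 in MAVER DMSO, 216 to 254 in IB, 267 to 298 in KPT and 972 to 1033 in PU libraries. COL1A1, a collagen gene, held most of the PU sum at 652 to 733, and the part of this difference in the PU results was not tested. RNA45S5, the ribosomal RNA precursor, stood at 53819 in KPT A, 66933 in KPT C and 65331 in JEKO1 DMSO C, against at most 32274 in any other library. Early response genes moved in opposite directions with IB: EGR1 averaged 17.7 in JEKO1 DMSO and 211 in JEKO1 IB libraries, but 33.2 and 0.321 in MAVER. Whether the JEKO1 libraries were exchanged or the line responded differently cannot be told apart, and each direction for JEKO1 refers to the libraries as labelled.

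Promoters are shown for the members with the 2 largest rises with KPT, CLK1 and SRSF5, and the 2 largest falls, HNRNPDL and SRSF7. Each run holds the 250 bases before the RefSeq gene start, 5′ to 3′ on the gene's own strand, in build GRCh38.p14. Capitals mark matches, on either strand, to 6 short motifs whose letters are given after the sequences, and matches of different motifs may overlap. CLK1 lies at chr2:200864659-200864908 (minus strand), SRSF5 at chr14:69766892-69767141 (plus strand), SRSF7 at chr2:38751495-38751744 (minus strand) and HNRNPDL at chr4:82430226-82430475 (minus strand).
CLK1: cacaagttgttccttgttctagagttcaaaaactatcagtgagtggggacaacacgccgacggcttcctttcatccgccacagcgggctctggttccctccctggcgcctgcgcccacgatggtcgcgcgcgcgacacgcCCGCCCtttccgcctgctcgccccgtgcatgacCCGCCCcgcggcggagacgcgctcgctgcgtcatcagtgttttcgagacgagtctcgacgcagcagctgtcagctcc
SRSF5: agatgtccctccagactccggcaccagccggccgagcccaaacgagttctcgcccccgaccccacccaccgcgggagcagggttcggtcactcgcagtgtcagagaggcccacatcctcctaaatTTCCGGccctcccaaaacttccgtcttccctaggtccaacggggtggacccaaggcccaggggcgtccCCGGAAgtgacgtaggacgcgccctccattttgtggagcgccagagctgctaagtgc
SRSF7: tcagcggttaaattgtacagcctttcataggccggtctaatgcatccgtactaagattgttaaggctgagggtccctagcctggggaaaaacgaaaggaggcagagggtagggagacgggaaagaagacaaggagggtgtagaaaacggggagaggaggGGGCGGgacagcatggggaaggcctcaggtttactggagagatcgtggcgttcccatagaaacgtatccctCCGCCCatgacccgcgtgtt
HNRNPDL: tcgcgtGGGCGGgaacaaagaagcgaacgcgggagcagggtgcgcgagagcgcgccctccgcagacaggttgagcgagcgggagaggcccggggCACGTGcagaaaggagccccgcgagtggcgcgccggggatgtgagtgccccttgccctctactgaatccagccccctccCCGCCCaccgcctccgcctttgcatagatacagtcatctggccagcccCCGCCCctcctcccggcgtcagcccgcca
In these windows CLK1, SRSF7 and HNRNPDL held GC boxes, HNRNPDL also held an E-box, and SRSF5 held ETS cores. RefSeq promoters were matched for 35 of the 39 members. The members passed a count filter, whereas the 27305 promoters set beside them are of all genes with an entry, expressed here or not. The E-box, searched as CACGTG, stood in 7 of those 35 (20%), namely CLK2, CLK4, HNRNPA3, HNRNPD, HNRNPDL, HNRNPH3 and HNRNPM, against 6.49% of 27305 promoters. The GC box, searched as GGGCGG, stood in 22 members' windows (62.9%) and in 42.3% of all. For the box with the letters CCAAT the members' count was 14 (40.0% against 33.0%). The ETS core, which was searched with the letters CCGGAA, was present in 6 (17.1% against 14.8%). The TATA box was searched as TATAAA and found in 5 (14.3% against 11.1%). The cyclic AMP response element, for which the search used the letters TGACGTCA, was in 0 of the 35 windows and in 1.77% of all promoters. Median GC content was 65.2% over the members and 58.0% over all promoters. Of the E-box holders, with PU, CLK4 rose, HNRNPD, HNRNPDL, HNRNPH3, HNRNPM and HNRNPA3 fell, and CLK2 was not called. With PU 46.2% of members and 27.5% of all genes fell. With KPT, CLK4 rose, HNRNPA3, HNRNPD and HNRNPDL fell, and CLK2, HNRNPH3 and HNRNPM were not called. Any part of the E-box in these changes was not tested.

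Each comparison was made across all genes that passed the filter, with limma on log2(normalized count + 1), and a gene is said to have risen or fallen only at a Benjamini-Hochberg adjusted p under 0.05. Replicates were close: over 234 combinations of member and group the median coefficient of variation was 3.48%, the largest being 36.5% for SRSF10 in PU libraries. With KPT in MAVER, 8 of 39 members rose and 16 fell, where 27.3% of 11099 genes tested rose and 28.5% fell. With PU, 7 rose and 18 fell, against 27.6% and 27.5% of all genes. With IB in MAVER, 7 rose and 1 fell, against 10.1% and 9.65%. In JEKO1, 6 were higher and 11 lower in the libraries labelled IB, against 21.9% and 20.2% of 11609 genes. The members' median log2 fold change was -0.09 with KPT and -0.10 with PU, beside 0.00 and 0.01 over all genes, and 0.03 and -0.05 with IB in MAVER and JEKO1, beside -0.01 in both lines.

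Calls past 1.5-fold numbered 6 with KPT and 7 with PU (15.4% and 17.9% of members), near the 14.6% and 14.9% of all genes. With IB they numbered 0 in MAVER and 1 in JEKO1 (2.56%), beside 4.11% and 11.6% of all genes. Groups did not overlap for 27 members with KPT, 28 with PU, 11 with IB in MAVER and 17 in JEKO1, where 60.4%, 61.2%, 33.8% and 50.2% of all genes had no overlap. SRSF10, CLK2, HNRNPA1L2 and HNRNPUL1 were called in none of these 4 comparisons. Without the KPT libraries rich in RNA45S5 (A and C), 8 members rose and 13 fell with KPT. That fit rests on KPT B alone, which is assumed to vary like the libraries of the other groups. Without JEKO1 DMSO C, 7 were higher and 9 lower in JEKO1.

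**Figure D1:**
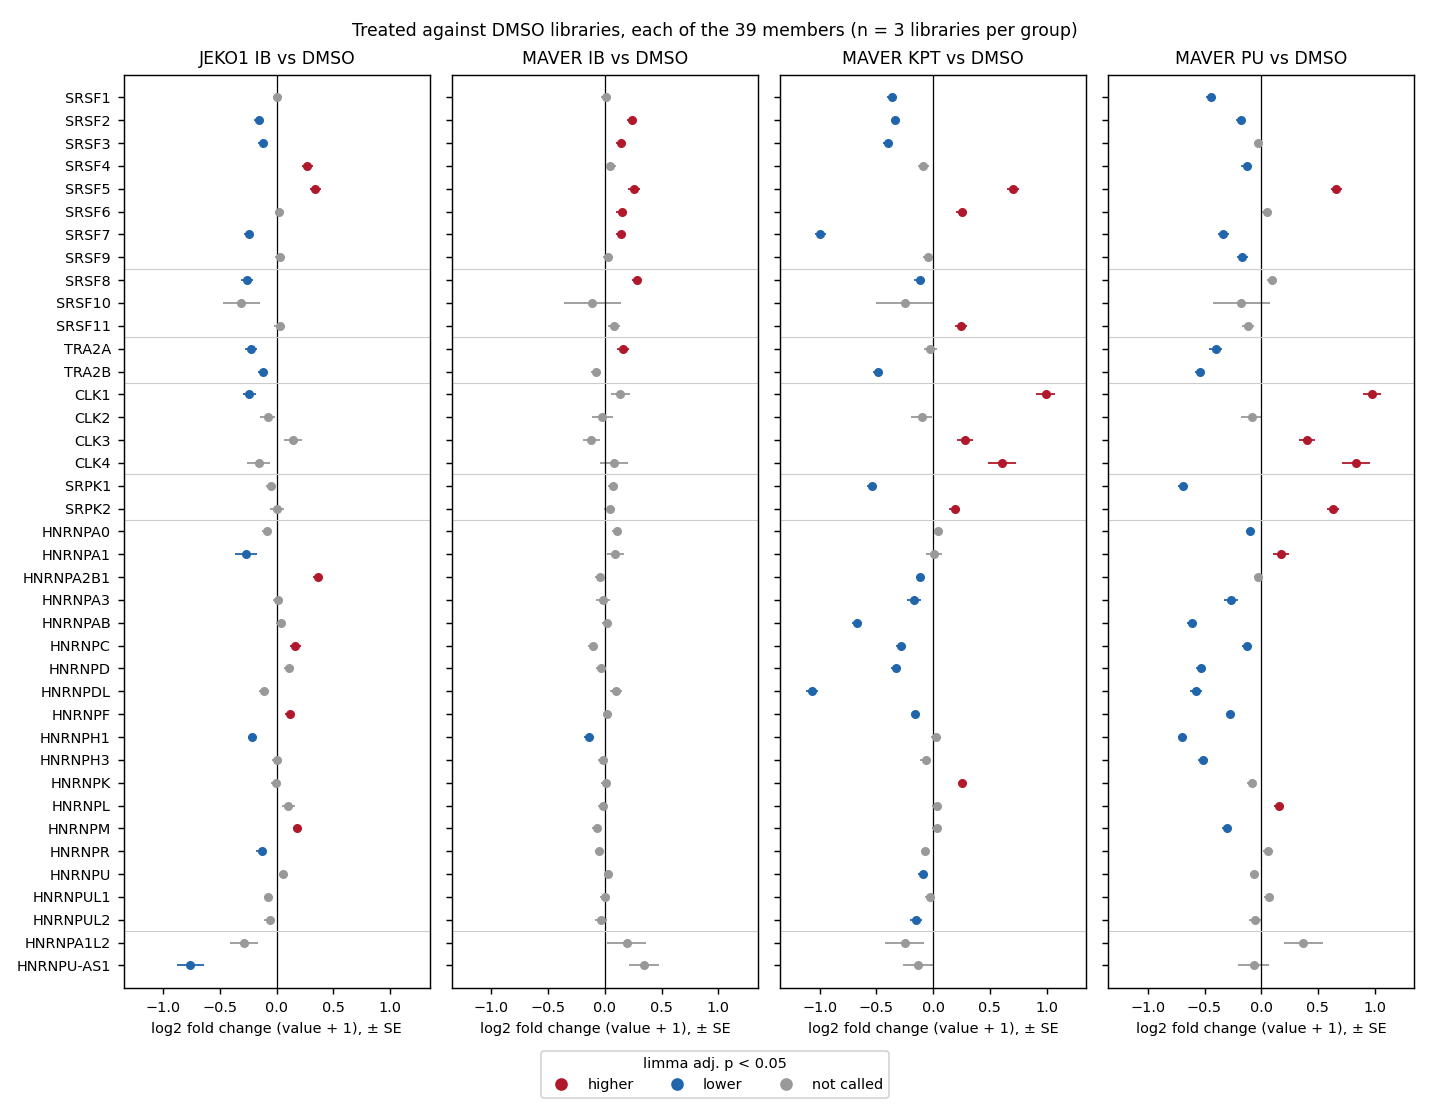
Log2 fold change ± SE of each of the 39 members (rows, grouped by role) in the 4 comparisons of treated with DMSO libraries, n = 3 libraries per group, coloured by the limma call. The KPT and PU panels hold the wide movements, with CLK1 near 1 and HNRNPDL and SRSF7 near -1 with KPT, and the IB panels stay within 0.4 of zero except HNRNPU-AS1 in JEKO1.

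Among the CLK kinases, which phosphorylate SR proteins inside the nucleus, 3 of 4 rose with KPT and 3 of 4 with PU, where 27.3% and 27.6% of all genes rose. CLK1 stood at 272, 345 and 294 normalized counts in MAVER DMSO libraries A, B and C, 305, 327 and 365 with IB, 545, 653 and 612 with KPT and 602, 619.9 and 566 with PU. All 6 KPT and PU libraries lay above all 6 DMSO and IB libraries. Its means were 303 ± 37.5 with DMSO, 603 ± 54.6 with KPT and 596 ± 27.5 with PU (SD, n = 3). The change was 0.99 ± 0.08 (log2 fold change ± SE; limma adjusted p = 1.96e-13) with KPT and 0.98 ± 0.08 (log2 fold change ± SE; limma adjusted p = 2.41e-13) with PU, which is 1.99-fold and 1.97-fold. CLK4, the closest relative of CLK1, read 96.7, 103 and 104 with DMSO, 139.9, 169 and 157 with KPT and 184, 181 and 179 with PU. The 3 groups did not overlap, the PU libraries being highest, and the changes were 0.61 ± 0.12 (log2 fold change ± SE; limma adjusted p = 4.80e-05) and 0.84 ± 0.12 (log2 fold change ± SE; limma adjusted p = 1.95e-07). CLK3 read 419, 440.1 and 448 with DMSO, 516, 520.3 and 551 with KPT and 542, 570.0 and 619 with PU. It rose by 0.28 ± 0.07 and 0.40 ± 0.07 on the log2 scale (limma adjusted p = 0.000968 and 7e-06). CLK2 was not called, at -0.10 ± 0.09 with KPT and -0.08 ± 0.09 with PU. Both comparisons share the DMSO libraries. Set directly against each other, PU and KPT libraries gave no call for any CLK gene, CLK4 differing by 0.23 ± 0.12 (limma adjusted p = 0.109).

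The SRPK kinases, which act mainly in the cytoplasm, moved apart. SRPK1 read 2083, 2169 and 2108 with DMSO, 2299, 2131 and 2255 with IB, 1469, 1446 and 1465 with KPT and 1315, 1320.3 and 1300.3 with PU. The KPT libraries lay below every DMSO and IB library, and the PU libraries lay below the KPT libraries. SRPK1 fell by 0.54 ± 0.05 with KPT and by 0.69 ± 0.05 with PU on the log2 scale (limma adjusted p = 3.49e-13 and 1.68e-16). SRPK2 read 1009.5, 961 and 1015 with DMSO, 1166, 1126 and 1118 with KPT and 1559, 1559 and 1512 with PU. It was highest in PU libraries, with no overlap among the 3 groups, and rose by 0.19 ± 0.05 and 0.63 ± 0.05 (limma adjusted p = 0.00106 and 2.74e-14). The direct difference, PU minus KPT, was 0.44 ± 0.05 for SRPK2 and -0.15 ± 0.05 for SRPK1 (limma adjusted p = 5.02e-10 and 0.00367), and that of SRPK1 was no longer called without KPT A and C (adjusted p = 0.0774). Neither SRPK gene was called with IB in either line.

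Of the 8 classical SR proteins, 2 rose and 4 fell with KPT (25% and 50%, beside 27.3% and 28.5% of all genes), and 1 rose and 5 fell with PU (12.5% and 62.5%, beside 27.6% and 27.5%). SRSF5, an enhancer-binding factor, rose with each drug. In MAVER it read 898, 913 and 940.4 with DMSO, 1067, 1072 and 1150.2 with IB, 1453, 1539.5 and 1495 with KPT and 1482, 1492 and 1384 with PU. The DMSO libraries were lowest, the IB libraries intermediate, and the KPT and PU libraries highest, with overlap only between KPT and PU. The changes were 0.71 ± 0.05 (log2 fold change ± SE; limma adjusted p = 3.80e-15) with KPT and 0.66 ± 0.05 (log2 fold change ± SE; limma adjusted p = 1.85e-14) with PU. SRSF7, which carries a zinc knuckle and also takes part in 3′ end formation and mRNA export, moved the other way. It read 3011, 2921 and 2900.1 with DMSO, 3160.5, 3337 and 3248 with IB, 1456, 1516 and 1464 with KPT and 2381, 2445 and 2190.1 with PU. The KPT level was about 0.502 of the DMSO level and the PU level about 0.794 of it, again with no overlap. SRSF7 fell by 0.99 ± 0.04 with KPT and 0.33 ± 0.04 with PU (log2 scale; limma adjusted p = 2.49e-21 and 3.98e-08).

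SRSF1, the founding member of the family, read 8231, 7742 and 8036 with DMSO, 6375, 6166 and 6134 with KPT and 6216, 5808 and 5628 with PU. It fell by 0.36 ± 0.04 and 0.44 ± 0.04 on the log2 scale (limma adjusted p = 4.47e-10 and 1.88e-12). SRSF2 fell by 0.33 ± 0.04 with KPT and 0.18 ± 0.04 with PU. SRSF3, the smallest SR protein, read 5180.3, 4830.5 and 4819 with DMSO, 3954, 3824 and 3505 with KPT and 4954, 4926 and 4691 with PU. Its KPT libraries were below the rest and its PU libraries overlapped DMSO, with changes of -0.40 ± 0.04 (limma adjusted p = 3.10e-10) and -0.03 ± 0.04 (limma adjusted p = 0.648). SRSF6 rose with KPT (0.25 ± 0.05) and stood at 0.05 ± 0.05 with PU. SRSF4 and SRSF9 fell with PU, by 0.13 ± 0.05 and 0.17 ± 0.05, and were not called with KPT. The SRSF4 call was lost without PU C, DMSO A or DMSO C (adjusted p = 0.0609 to 0.0822).

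Of the 3 other SRSF genes, 1 rose and 1 fell with KPT, beside 27.3% and 28.5% of all genes. With PU 0 were called, beside 27.6% of all genes that rose and 27.5% that fell. SRSF11 rose with KPT (0.24 ± 0.05; limma adjusted p = 0.000176) and stood at -0.11 ± 0.05 with PU. SRSF8, the gene copy related to SRSF2, fell by 0.12 ± 0.05 with KPT, a call lost without KPT A, KPT B, KPT C, DMSO A or DMSO C (adjusted p = 0.05 to 0.147). SRSF10, read at 31.3, 41.0 and 39.9 with DMSO, 25.1, 32.1 and 37.4 with KPT and 20.7, 45.3 and 37.2 with PU, overlapped between groups and was not called (-0.25 ± 0.25 with KPT and -0.18 ± 0.25 with PU; limma adjusted p = 0.419 and 0.578). The TRA2 genes encode SR-like activators of exon inclusion. With KPT 1 of 2 fell and with PU both fell, where 28.5% and 27.5% of all genes fell. TRA2B, whose protein binds purine-rich enhancers, read 4326, 4249 and 4554 with DMSO, 3159.8, 3170.5 and 3022 with KPT and 3032, 3036 and 2936 with PU. It fell by 0.49 ± 0.04 and 0.54 ± 0.04 (limma adjusted p = 3.28e-13 and 1.24e-14), and both treated groups lay below DMSO. TRA2A read 966, 1023 and 977 with DMSO, 992, 1022 and 907 with KPT and 733, 773 and 737 with PU. Only its PU libraries were low: it fell by 0.40 ± 0.06 with PU, stood at -0.02 ± 0.06 with KPT, and differed between PU and KPT by -0.38 ± 0.06 (log2 fold change ± SE; limma adjusted p = 3.03e-07).

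**Figure D2:**
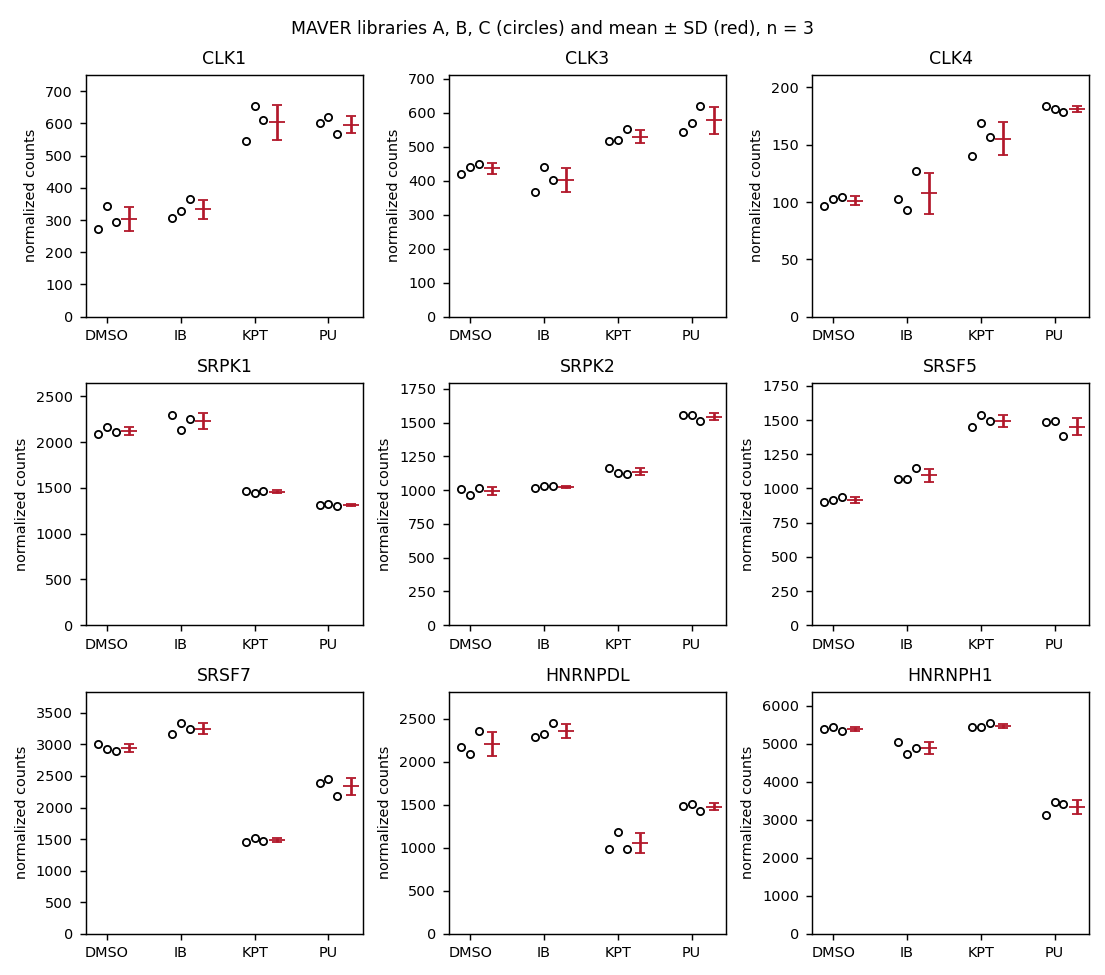
Normalized counts (y axis, from 0) of 9 members in the 12 MAVER libraries by treatment, with libraries A, B and C as circles and the mean ± SD in red (n = 3). CLK1 and SRSF5 sit higher with KPT and PU, SRPK1, SRSF7 and HNRNPDL sit lower, and HNRNPH1 is low with PU, at a mean of 3334 against 5393 with DMSO.

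Of the 18 hnRNP protein genes, 1 rose and 9 fell with KPT (5.56% and 50%, beside 27.3% and 28.5% of all genes), and 2 rose and 10 fell with PU (11.1% and 55.6%, beside 27.6% and 27.5%). HNRNPDL, a relative of the AU-rich element binding protein hnRNP D, had the largest fall of any member with KPT. It read 2171, 2089 and 2357 with DMSO, 2294, 2328 and 2451 with IB, 989.9, 1188 and 987 with KPT and 1489, 1515 and 1434 with PU. KPT libraries were lowest and PU libraries intermediate, with no overlap. HNRNPDL fell by 1.07 ± 0.06 with KPT and 0.57 ± 0.06 with PU (log2 scale; limma adjusted p = 2.48e-19 and 1.48e-11). HNRNPAB, also of the A/B and D type, read 3935, 4113 and 4301 with DMSO, 2518, 2527 and 2726 with KPT and 2633, 2777 and 2675 with PU. The KPT and PU libraries lay together below DMSO, and the falls were 0.67 ± 0.04 and 0.61 ± 0.04 (limma adjusted p = 2.24e-16 and 2.63e-15). HNRNPD itself fell by 0.33 ± 0.04 and 0.53 ± 0.04 (limma adjusted p = 2.34e-08 and 9.70e-14).

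HNRNPH1, which binds G-rich sequences, separated PU from KPT most widely. It read 5400.4, 5445 and 5334 with DMSO, 5052, 4740.1 and 4892 with IB, 5437, 5452 and 5543 with KPT and 3124, 3467 and 3411 with PU. Every PU library lay below every other MAVER library, and KPT overlapped DMSO. The change was -0.69 ± 0.04 (log2 fold change ± SE; limma adjusted p = 8.46e-18) with PU and 0.02 ± 0.04 with KPT (limma adjusted p = 0.665). Its relative HNRNPH3 read 1889, 1878 and 1872 with DMSO, 1793, 1763 and 1830.4 with KPT and 1359.7, 1353 and 1238 with PU, and fell by 0.51 ± 0.05 with PU (limma adjusted p = 2.15e-12). HNRNPF, the third gene of the F/H type, fell with both, by 0.16 ± 0.04 and 0.27 ± 0.04. HNRNPM fell with PU by 0.30 ± 0.04 and stood at 0.03 ± 0.04 with KPT. HNRNPK, a poly(C)-binding protein, was the hnRNP gene that rose with KPT, at 6162, 6163 and 6103 against 5306, 5049 and 5063 with DMSO (0.26 ± 0.04, log2 fold change ± SE; limma adjusted p = 5.64e-07). HNRNPL and HNRNPA1 rose with PU, by 0.15 ± 0.04 and 0.17 ± 0.07. The HNRNPA1 call was lost without PU A, PU B, PU C, DMSO B or DMSO C (adjusted p = 0.0552 to 0.173), and also with DESeq2, with equal totals, without the eBayes trend or without the filter (adjusted p = 0.0575 to 0.137).

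The remaining hnRNP calls were small. HNRNPC fell by 0.28 ± 0.04 with KPT and 0.12 ± 0.04 with PU, the PU call being lost without PU B, DMSO A or DMSO C (adjusted p = 0.0792 to 0.133). HNRNPA3 fell by 0.17 ± 0.06 and 0.26 ± 0.06, and its KPT call was lost without KPT B or DMSO B (adjusted p = 0.0911 to 0.112). With KPT, HNRNPA2B1, HNRNPU, the scaffold-attachment protein, and HNRNPUL2 fell by 0.12 ± 0.04, 0.09 ± 0.04 and 0.15 ± 0.05. These calls were lost without DMSO C (adjusted p = 0.0501) for HNRNPA2B1, without KPT B, KPT C, DMSO A or DMSO C (adjusted p = 0.0537 to 0.103) for HNRNPU and without KPT B or DMSO B (adjusted p = 0.0592 to 0.0715) for HNRNPUL2. HNRNPA0 fell with PU by 0.10 ± 0.04, lost without PU A, DMSO B or DMSO C (adjusted p = 0.0512 to 0.211). HNRNPR and HNRNPUL1 were called with neither. HNRNPA1 has 74 pseudogenes named in GENCODE, HNRNPA3 16 and HNRNPC 9, so reads may be split among copies and their values are uncertain. HNRNPA1L2 and HNRNPU-AS1, a copy and an antisense gene with uncertain counts, were called with neither KPT nor PU.

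Because the KPT and PU comparisons share the DMSO libraries, the treated groups were also set against each other. The direct comparison of PU with KPT libraries called 12 members higher and 12 lower, where 28.3% of all genes were higher and 28.6% lower, and 25 members did not overlap (60.6% of all genes). Higher with PU were SRSF7 (0.66 ± 0.04), HNRNPA1L2 (0.62 ± 0.17), HNRNPDL (0.49 ± 0.06), SRPK2 (0.44 ± 0.05) and SRSF3 (0.37 ± 0.04), as log2 differences ± SE. Lower were HNRNPH1 (-0.72 ± 0.04), HNRNPH3 (-0.45 ± 0.05), TRA2A (-0.38 ± 0.06), SRSF11 (-0.36 ± 0.05) and HNRNPK (-0.34 ± 0.04). The limma adjusted p was 5.76e-16 for SRSF7 and 2.72e-18 for HNRNPH1, at the ends of the range. Without KPT A and C, 6 members were higher and 10 lower, and HNRNPA1L2 was no longer called (adjusted p = 0.0757).

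**Figure D3:**
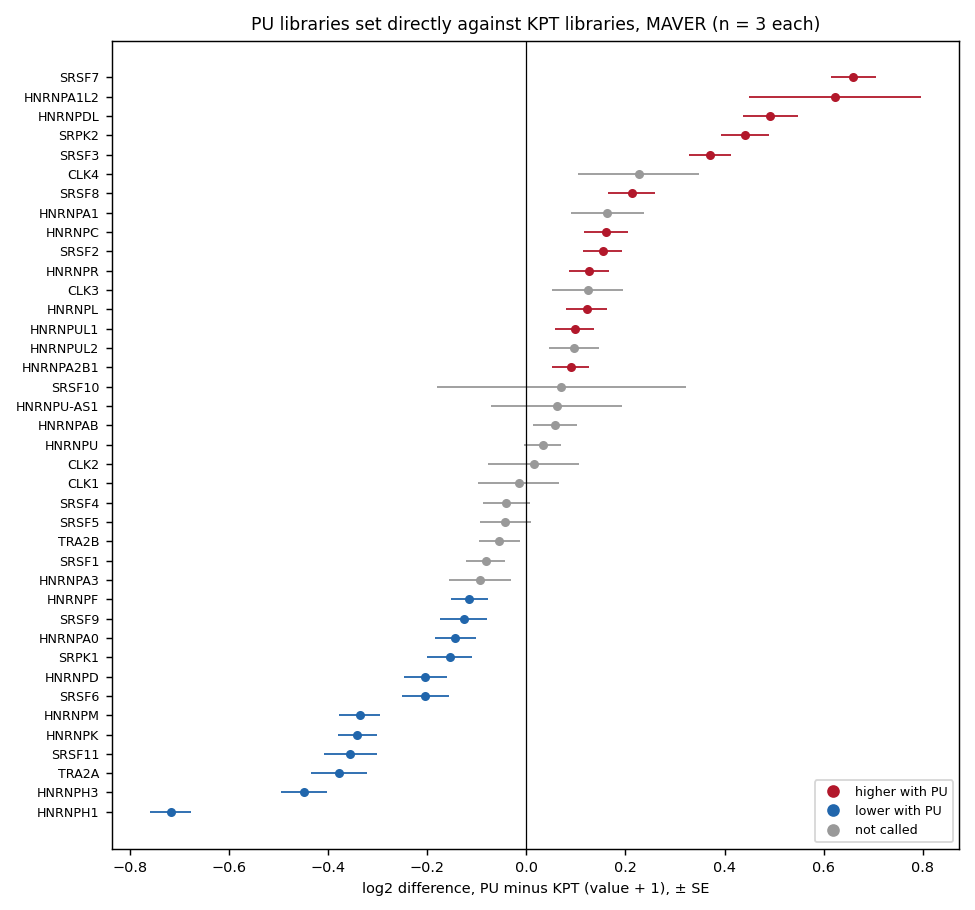
Log2 difference ± SE between PU and KPT libraries of MAVER for each of the 39 members, ordered by size and coloured by the limma call (n = 3 per group). SRSF7 is highest at 0.66 and HNRNPH1 lowest at -0.72, with CLK1 and SRSF5 close to zero.

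Between the drugs IB and KPT in MAVER, 9 members were higher and 18 lower with KPT (27.0% and 28.2% of all genes), and 25 did not overlap (58.4% of all genes). CLK1 (0.86 ± 0.08), CLK4 (0.53 ± 0.12), SRSF5 (0.45 ± 0.05), CLK3 (0.40 ± 0.07) and HNRNPK (0.25 ± 0.04) were higher, and HNRNPDL (-1.16 ± 0.06), SRSF7 (-1.14 ± 0.04), HNRNPAB (-0.69 ± 0.04), SRPK1 (-0.61 ± 0.05) and SRSF2 (-0.57 ± 0.04) lower (log2 difference ± SE). The limma adjusted p was 1.24e-11 for CLK1 and 5.33e-23 for SRSF7. SRSF2 read 5856, 5769 and 5615 with IB and 3897, 3933 and 3768 with KPT, on either side of 4763, 4845 and 5021 with DMSO. Without KPT A and C, 7 members were higher and 14 lower.

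With IB in MAVER, 6 of 11 SRSF genes rose and 0 fell by limma, and of 18 hnRNP protein genes 0 rose and 1 fell, where 10.1% of all genes rose and 9.65% fell. The difference between these classes was not tested, and 3 of the 6 SRSF calls held in every setting. At an unadjusted p under 0.05, limma, edgeR and DESeq2 each gave 1 hnRNP gene as higher and 0 SRSF genes as lower, and edgeR and DESeq2 also gave 0 in both at their adjusted p. SRSF8 read 1652, 1501 and 1642 with DMSO and 1898, 1962 and 1975 with IB, with no overlap (0.28 ± 0.05, log2 fold change ± SE; limma adjusted p = 1.04e-05). SRSF5 rose by 0.26 ± 0.05 (limma adjusted p = 0.000159), from 898, 913 and 940.4 to 1067, 1072 and 1150.2. SRSF2 rose by 0.24 ± 0.04 (limma adjusted p = 9.33e-06), from 4763, 4845 and 5021 to 5856, 5769 and 5615, again without overlap. These are the 3 SRSF calls that held under each alternative and each library left out. TRA2A, SRSF6, SRSF3 and SRSF7 rose by 0.16 ± 0.06, 0.15 ± 0.05, 0.14 ± 0.04 and 0.14 ± 0.04, and HNRNPH1 fell by 0.14 ± 0.04. The TRA2A call was lost without IB A, IB C, DMSO A or DMSO C (adjusted p = 0.0891 to 0.189), and that of SRSF6 without IB A, IB C or DMSO C (adjusted p = 0.079 to 0.189). For SRSF3 it was lost without DMSO B or DMSO C (adjusted p = 0.0635 to 0.0771), for SRSF7 without IB B, DMSO B or DMSO C (adjusted p = 0.0601 to 0.103) and for HNRNPH1 without IB B (adjusted p = 0.0818). Without MAVER DMSO C, 4 members were called in place of 8, 3 of them higher.

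In JEKO1, SRSF5 was again higher in the libraries labelled IB, at 1673, 1805 and 1772 against 1383, 1379 and 1381 with DMSO (0.34 ± 0.05, log2 fold change ± SE; limma adjusted p = 7.67e-06). HNRNPA2B1 read 18799, 18462 and 20326 with DMSO and 23937, 24836 and 25126 with IB. The groups did not overlap, and its rise of 0.36 ± 0.04 was the largest of any member (limma adjusted p = 3.71e-07). SRSF4 rose by 0.27 ± 0.05, HNRNPM by 0.18 ± 0.04, HNRNPC by 0.16 ± 0.05 and HNRNPF by 0.11 ± 0.04. The HNRNPC call was lost without IB C, DMSO A or DMSO B (adjusted p = 0.064 to 0.0846) and that of HNRNPF without DMSO A (adjusted p = 0.051). HNRNPU-AS1 read 323, 359.9 and 322 with DMSO and 241, 156 and 202 with IB and fell by 0.76 ± 0.12 (limma adjusted p = 2.77e-05), while HNRNPU, the gene on the other strand, stood at 0.06 ± 0.04. No source used here says whether reads were counted by strand, so reads of this pair cannot be told apart. Among SR protein genes SRSF8, SRSF7, SRSF2 and SRSF3 fell by 0.26 ± 0.05, 0.25 ± 0.04, 0.16 ± 0.04 and 0.12 ± 0.04. The SRSF3 call was lost without IB A (adjusted p = 0.066), and without the eBayes trend those of SRSF2 and SRSF3 were lost (adjusted p = 0.0516 and 0.113).

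Both TRA2 genes fell in JEKO1, where 20.2% of all genes fell. The falls were 0.22 ± 0.05 for TRA2A and 0.12 ± 0.05 for TRA2B. The TRA2B call was lost without IB A, IB B, DMSO A, DMSO B or DMSO C (adjusted p = 0.0502 to 0.162). CLK1 fell from 712, 721 and 721 to 623, 596 and 604, by 0.24 ± 0.06 (limma adjusted p = 0.0021), and it was the one CLK gene called. Among hnRNPs, HNRNPH1 fell by 0.21 ± 0.04, HNRNPA1 by 0.27 ± 0.10 and HNRNPR by 0.13 ± 0.05. The HNRNPA1 call was lost without IB A, IB C, DMSO A or DMSO B (adjusted p = 0.0907 to 0.13), and that of HNRNPR without IB A, IB B, DMSO A or DMSO C (adjusted p = 0.0678 to 0.181). The calls of HNRNPR and TRA2B were also lost with DESeq2 (DESeq2 adjusted p = 0.0515 and 0.0591) and without the filter (limma adjusted p = 0.0505 and 0.0576). Without the eBayes trend, the JEKO1 calls of HNRNPR, TRA2B, HNRNPA1, HNRNPC and HNRNPF were lost (limma adjusted p = 0.101 to 0.217).

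Whether IB acted differently in the lines was tested directly, by subtracting the MAVER log2 fold change from that of JEKO1. A difference was called for 14 of 39 members, 4 with a higher and 10 with a lower JEKO1 effect, where 21.7% of 10632 genes were higher and 19.6% lower. SRSF2, SRSF3, SRSF7, SRSF8 and TRA2A fell in JEKO1 and rose in MAVER, and the difference was called for all 5. For SRSF8 it was -0.55 ± 0.07 and for SRSF2 -0.40 ± 0.05 (limma adjusted p = 3.95e-07 and 7.26e-07). HNRNPA2B1 had the largest difference in the other direction, at 0.41 ± 0.06 (limma adjusted p = 1.32e-06). SRSF5 rose in both lines and HNRNPH1 fell in both. Across the 39 members the 2 IB effects had Pearson's r = -0.437 and Spearman's rho = -0.372, with opposite signs for 22, given as a description over genes of the same libraries. Were the JEKO1 labels exchanged, the JEKO1 signs would invert, and such an exchange was not tested.

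**Figure D4:**
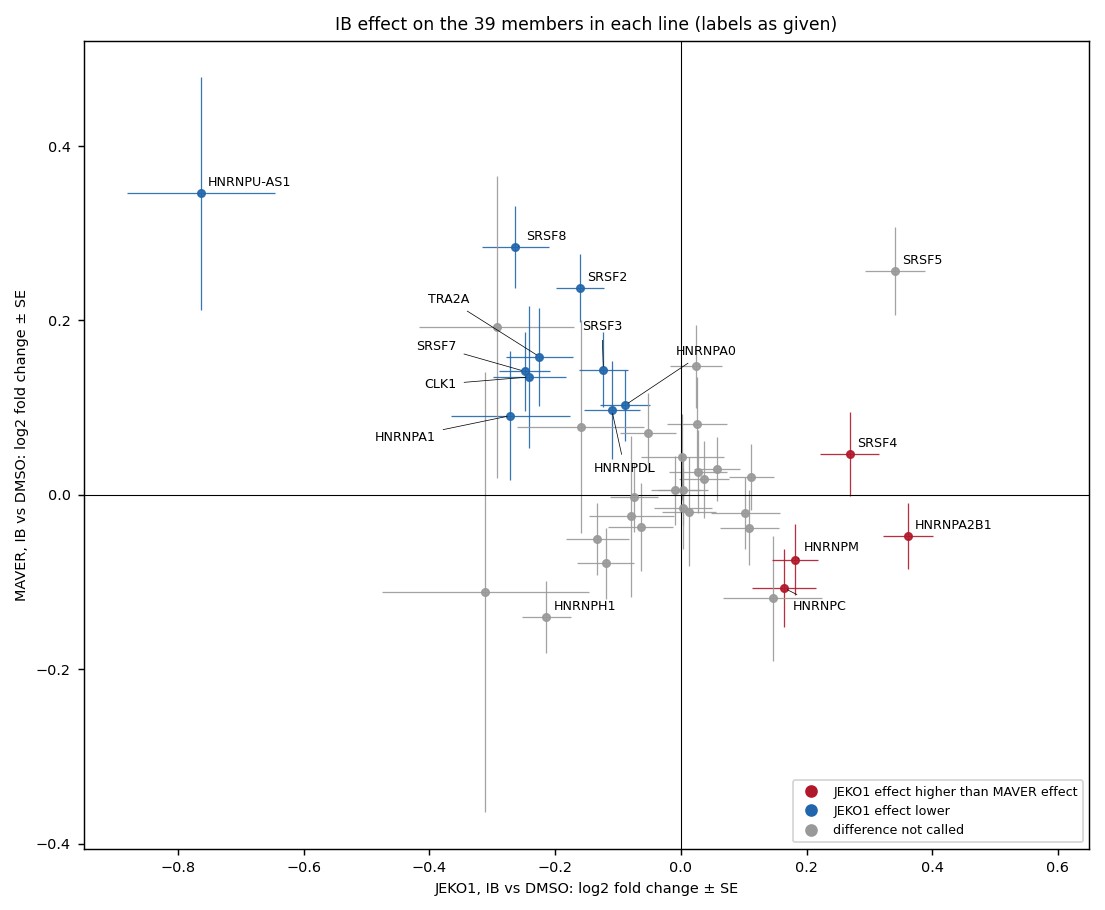
IB effect in JEKO1 (x axis) against that in MAVER (y axis), log2 fold change ± SE, for the 39 members, labels as given. Coloured points are the 14 members whose effect differed between lines. Most lie in the upper left, with SRSF2, SRSF3, SRSF7, SRSF8 and TRA2A, while SRSF5 lies in the upper right.

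Beyond the members, 124 of 126 listed genes of the splicing machinery and its partners were tested. With KPT, 23 rose and 60 fell (18.5% and 48.4%, beside 27.3% and 28.5% of all genes), and with PU 22 rose and 55 fell (17.7% and 44.4%, beside 27.6% and 27.5%). The medians were -0.11 and -0.08 on the log2 scale, beside 0.00 and 0.01 over all genes. With IB in MAVER, 4 rose and 17 fell (3.23% and 13.7%, beside 10.1% and 9.65%). In JEKO1, 23 rose and 20 fell (18.5% and 16.1%), close to the all-gene shares of 21.9% and 20.2%. The U4/U6.U5 tri-snRNP joins the spliceosome before its activation. Of 14 listed components, 12 fell and 0 rose with KPT, and 8 fell and 2 rose with PU. With IB, 8 of these components fell and 0 rose in MAVER, and 5 rose and 1 fell in JEKO1. Their median log2 fold change was -0.29, -0.15, -0.14 and 0.05 in that order, and for 8 of them the test of JEKO1 against MAVER called the IB log2 fold change higher in JEKO1. SART1 and USP39 fell with KPT, at -0.61 ± 0.05 and -0.60 ± 0.05 (log2 fold change ± SE). Of 15 U2 factors, which recognise the branch point, 10 fell and 1 rose with KPT. With PU 9 fell and 0 rose, SNRPA1 falling by 0.90 ± 0.10. Of 10 U1 and Sm genes, 2 rose and 3 fell with KPT (median 0.00), and 0 rose and 3 fell with PU (median -0.05). SNRPA, a protein of the U1 particle, had the largest fall of this list with KPT. It averaged 669.8 with KPT and 1609 with DMSO, at -1.26 ± 0.05 (limma adjusted p = 1.32e-22), and PU exceeded KPT by 1.29 ± 0.05.

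For the lists that follow, the all-gene shares were 27.3% higher and 28.5% lower with KPT and 27.6% and 27.5% with PU. In the Prp19 and catalytic-step list, 7 of 16 rose (43.8%) and 4 fell (25%) with KPT (median 0.08). With PU, 6 rose (37.5%) and 3 fell (18.8%), with a median of 0.06. SYF2 rose by 0.90 ± 0.07 and 0.64 ± 0.07 and SLU7, a second-step factor, by 0.85 ± 0.05 and 0.60 ± 0.05. Of 10 mRNA export genes, 8 fell (80%) and 1 rose (10%) with PU. Among the falls were THOC1 (-0.94 ± 0.09) and DDX39A (-0.88 ± 0.04). With KPT 3 fell (30%) and 3 rose (30%), near the all-gene shares (medians -0.35 with PU and -0.02 with KPT). In the nonsense-mediated decay list, 7 of 14 fell and 3 rose with KPT, and 2 fell and 3 rose with PU (medians -0.16 and -0.01). UPF1, its helicase, fell by 0.59 ± 0.06 with KPT and was higher with PU than with KPT by 0.66 ± 0.06. Among the modifiers and importers of SR proteins and hnRNPs, 2 of 12 rose and 6 fell with KPT, and 3 rose and 7 fell with PU. DYRK1B, a kinase related to the CLK family, rose from 102 to 299 with KPT and to 393 with PU. Its changes were 1.54 ± 0.10 and 1.93 ± 0.10 (limma adjusted p = 1.02e-16 and 5.01e-20). PRMT5, an arginine methyltransferase, fell with both, by 0.38 ± 0.05 and 0.52 ± 0.05. TNPO3, the importin of SR proteins, rose with PU by 0.41 ± 0.05, and TNPO2, of the same list, fell with PU by 0.56 ± 0.06. In the list of other regulators, 5 of 33 rose and 15 fell with KPT, and 7 rose and 15 fell with PU. MBNL2 rose by 0.90 ± 0.06 with KPT and 1.67 ± 0.06 with PU, and SYNCRIP fell by 0.44 ± 0.05 and 0.49 ± 0.05.

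**Figure D5:**
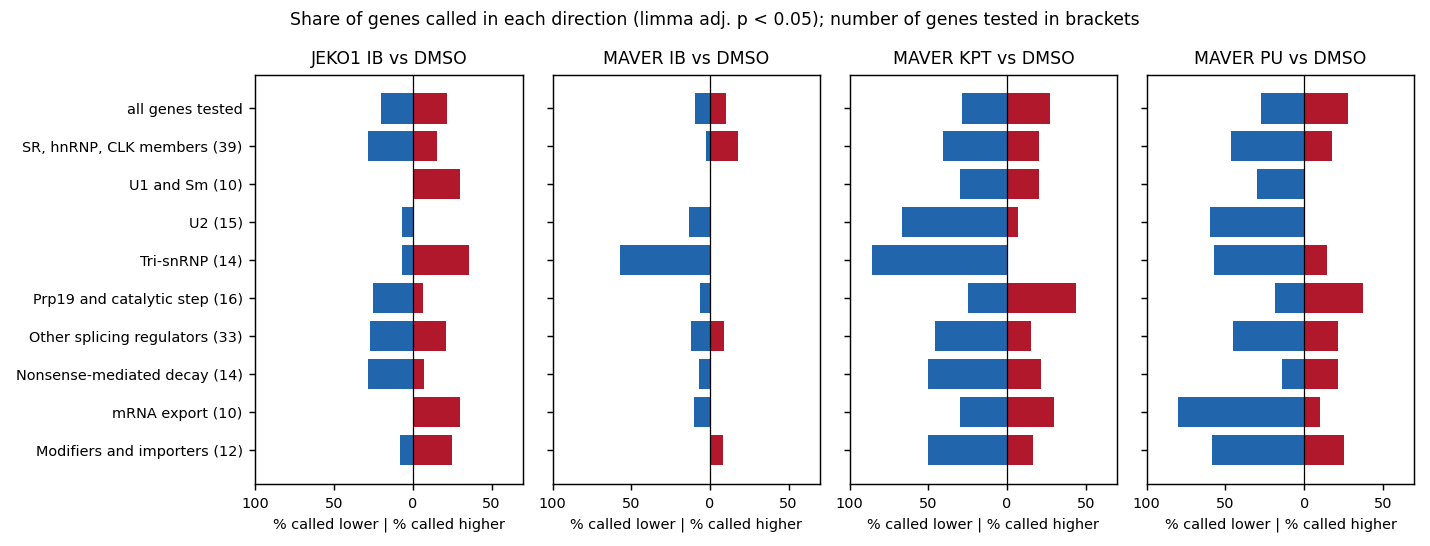
Share of genes called lower (left, blue) or higher (right, red) in each comparison with DMSO, for all genes tested, the 39 members and 8 lists of other splicing genes, with the number tested in brackets. The tri-snRNP list is largely lower in MAVER, reaching 12 of 14 genes with KPT, and mRNA export is largely lower with PU (8 of 10).

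Gene counts sum over isoforms and cannot separate coding from non-coding transcripts of a gene. In the GENCODE v29 annotation, 30 of 38 protein-coding members (78.9%) carried at least 1 transcript classed for nonsense-mediated decay. The share was 46.0% over the 9672 protein-coding genes tested in both lines. A retained-intron transcript was annotated for 28 of 38 (73.7%), against 60.3%. The number of transcripts annotated per gene was not matched between members and all genes. Which isoforms the 50-base reads came from was not tested.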

How the data were processed

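RNA was profiled in 6 JEKO1 and 12 MAVER libraries, n = 3 per group. Per the labels' protocols, stranded TruSeq libraries were read single-end at 50 bp and processed with STAR, Cufflinks and DESeq2; the submitters' processing notes add FastQC and hg19, without versions. Not given in the sources used here are the counter, its strand setting and the annotation. The deposited signal values are normalized counts that the authors made by dividing the reads of each gene by 1 factor per library, in a separate table for each line. Whole reads were recovered for 100% of values (tolerance 0.01). On them, edgeR 4.0.16 called 4923, 2347, 6171 and 6425 genes for JEKO1 IB, MAVER IB, KPT and PU against DMSO, DESeq2 1.42.0 called 4076, 1896, 5601 and 5816, and limma on the deposited values called 4879, 2197, 6202 and 6121.

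In R 4.3.3, limma 3.58.1 (lmFit, eBayes with trend) was run on log2(value + 1), keeping genes whose mean reached 10, with Benjamini-Hochberg adjustment over all genes of the fit. Log2 fold changes of genes with few reads are understated by the added 1. The MAVER groups were fitted together. The 7 comparisons were tested on simulated data first. Named genes are the kinases and TRA2 genes, the 5 largest rises and falls per comparison, ends of class ranges, and up to 2 rises and 2 falls per list; other members were named after their values were seen. Members and lists were chosen with earlier results of these data known. Of 25369 genes per table, 28 had date-like names and none of these is reported.

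Replicate letters were not taken as pairs, since the methods in the labels state drug against DMSO and name no block. Same-letter correlations of deviations ran from -0.0477 to 0.296 in JEKO1 and from -0.238 to 0.162 in MAVER. Between KPT and PU libraries they were positive for each letter (0.0481, 0.162 and 0.121). Replicate pairs differed by more than sampling noise (chi-square per degree of freedom 1.41 to 5.15). Alternatives were pseudocounts, filters, rescaling, eBayes without trend, a replicate block, fits of 2 groups, leaving libraries out, edgeR with TMM, and DESeq2. Sequences came from RefSeq tables (GRCh38.p14) and transcript classes from GENCODE v29.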

Additional observations from a re-analysis of the deposited data

Results flagged for a closer look

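The IB effect differed between JEKO1 and MAVER, by a test of the difference itself (limma adjusted p under 0.05), for 14 members, given as the JEKO1 minus the MAVER log2 fold change. Of these 14, 4 were higher and 10 lower in JEKO1 (10.3% and 25.6% of members), beside 21.7% and 19.6% of 10632 genes. Among SR protein and TRA2 genes these were SRSF8 (-0.55), SRSF2 (-0.40), SRSF7 (-0.39), TRA2A (-0.38) and SRSF3 (-0.27) on the lower side and SRSF4 (0.22) on the higher. CLK1 differed by -0.38. Among hnRNP genes HNRNPU-AS1 (-1.11), HNRNPA1 (-0.36), HNRNPDL (-0.21) and HNRNPA0 (-0.19) were lower, and HNRNPM (0.26), HNRNPC (0.27) and HNRNPA2B1 (0.41) higher. HNRNPA2B1 stood at 0.36 in JEKO1 and -0.05 in MAVER, and SRSF8 at -0.26 and 0.28. Of these differences, 11 were called in each of 22 alternatives. The HNRNPA1 call was lost without JEKO1 IB A, JEKO1 IB C, JEKO1 DMSO A, JEKO1 DMSO B, MAVER IB C, MAVER DMSO B or MAVER DMSO C (adjusted p = 0.0635 to 0.082), and that of HNRNPDL without MAVER DMSO B (adjusted p = 0.0554). Without the eBayes trend both were lost, and so was that of HNRNPC (adjusted p = 0.0563).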

How the results depend on the processing

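Over 4908 recomputed member values, 4675 kept their side of the threshold, 172 calls were lost and 61 were gained. Of the reported calls 0 changed sign, and sign changes of members not called were not counted. Without the eBayes trend, 11 members were called in JEKO1 in place of 17 and 3 with IB in MAVER in place of 8; the cause was not tested. Leaving out 1 library gave 4 to 8 members with IB in MAVER, the lowest without DMSO C. With the replicate block, 23 members were called in JEKO1 in place of 17, 18 for the difference between lines in place of 14, and 8, 24, 25, 27 and 24 in the other 5 comparisons. With PU the block ended the HNRNPA1 call (adjusted p = 0.0524) and added that of SRSF11, and in the 4 other MAVER comparisons it ended and added 0. The check of correlations showed no pairing common to all letters, with hints otherwise. KPT and PU libraries correlated best with their own letter in 6 of 6 cases, and other pairs of groups in 0 to 4 of 6. In JEKO1 the same-letter correlations were 0.127 for A, -0.0477 for B and 0.296 for C. There the block added 6 calls and ended 0. Whether JEKO1 libraries were paired by letter was not tested, and the reported JEKO1 calls rest on an unpaired fit. Calls held in every setting for 10 of 17 members in JEKO1, 3 of 8 with IB in MAVER, 19 of 24 with KPT and 21 of 25 with PU. Without KPT A and C, PU minus KPT fell from 24 to 16 calls and KPT minus IB from 27 to 21. With equal upper quartiles, the KPT calls of HNRNPA2B1, HNRNPA3, HNRNPU, HNRNPUL2 and SRSF8 and the PU call of HNRNPA0 were lost (adjusted p = 0.0548 to 0.201). Without the filter, the JEKO1 calls of HNRNPR and TRA2B and the MAVER IB call of TRA2A were lost. So were the KPT call of HNRNPU and the PU calls of HNRNPA0, HNRNPA1 and HNRNPC (limma adjusted p = 0.05 to 0.068 over these losses). SRSF10, at 20.7 counts in its lowest library, had an SE of 0.25 on the log2 scale in MAVER.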
